A study of Arabidopsis thaliana with 32 samples.

Results

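BIG (AT3G02260) is one of the longest genes of Arabidopsis thaliana. Followed here through a heat shock were the places along it where RNA polymerase II signal differed between tfiis-1 and Col-0 seedlings. BIG was 1 gene of the 9114 that the 8 deposited lists name, and its lines were found by its gene identifier. BIG was chosen by the numbers and positions of its summits in these same lists, so those values are a description and carry no test. The lists together hold 10 summits in BIG, of which 3 were higher in tfiis-1 and 7 were higher in Col-0.

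BIG encodes a very large calossin-like protein, related to Pushover of Drosophila and to UBR4 of mammals, which carries a zinc finger of the UBR type. Its mutants, among them tir3 and doc1, were found through altered responses to inhibitors of auxin transport and to light, and the gene is known for its part in polar auxin transport, plant size and organ growth. It is also known to act beside the ubiquitin ligase PRT6 in the N-degron pathway, which removes proteins according to the residue at their amino terminus. TFIIS is an elongation factor that lets RNA polymerase II cut its transcript and go on after it has backtracked. Phosphorylation of serine 2 in the repeats of the polymerase's C-terminal domain (S2P) marks polymerase in productive elongation.

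Seedlings of the mutant tfiis-1 and of the wild type Col-0 were grown in vitro to 14 days after stratification and taken before heat shock (0 min) or after 10 min, 30 min or 3 h of it. There were 3 S2P ChIP libraries from biological triplicates and 1 input library for each genotype and time, which makes 24 ChIP and 8 input libraries. What was analysed are lists of summits, each a position 1 bp wide at which the signal of one genotype exceeded that of the other: a tfiis-1-higher and a Col-0-higher list at each time. The 2 lists of a time come from the same libraries, whereas lists of different times do not. The labels name the mutant by its allele only and call the tissue seedlings, and with no signal level in the lists that label could not be set against marker genes. More polymerase per cell and more cells with polymerase on the gene cannot be told apart in whole seedlings. The depth behind the summits is unknown, there is no spread between libraries, and a summit has no replicate check here. TFIIS itself (AT2G38560), the mutated gene, was in 0 of the 8 lists, which says nothing about the genotypes.

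In TAIR10, BIG lies on the minus strand of chromosome 3 from 430877 to 448680. At 17804 bp it was the eleventh-longest of 27444 nuclear protein-coding genes, and 8.57 times as long as their median of 2078 bp. No summit assigned to another gene lay inside it, so the lists assign every summit there to BIG alone.

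BIG was absent from the lists of the unheated and the briefly heated seedlings and appeared in both directions later. At 0 min and at 10 min it held 0 tfiis-1-higher and 0 Col-0-higher summits. At 30 min it held 2 tfiis-1-higher summits and 1 Col-0-higher summit. At 3 h it held 1 tfiis-1-higher summit and 6 Col-0-higher summits. The tfiis-1-higher sites were thus never more than 2, and the Col-0-higher sites made up most of its summits at 3 h.

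These counts stand against lists that differ widely in length. Of all nuclear protein-coding genes, the tfiis-1-higher lists held 4.90% (0 min), 10.9% (10 min), 16.6% (30 min) and 23.7% (3 h). The Col-0-higher lists held 0.113%, 0.251%, 3.16% and 10.8% at the same times. With 2 or more summits in a gene required, the shares in the tfiis-1-higher lists were 0.609%, 2.29%, 7.72% and 12.8%, and that in the Col-0-higher list of 3 h was 0.725%. Few genes were Col-0-higher before 30 min, so absence from those early lists was the common case. A gene with 1 summit was also the common case among Col-0-higher genes at 3 h: 2758 of the 2957 genes (93.3%) held 1. Only THO2 (AT1G24706), a subunit of the THO complex of mRNA export, held more than BIG in that list, with 7, and CAX3 (AT3G51860), a vacuolar calcium exchanger, held 6 as well. THO2 and CAX3 were singled out after their values were seen. In the other lists that held BIG its numbers were ordinary: 905 of 4550 genes held more than its 2 tfiis-1-higher summits at 30 min, and 3503 of 6498 held more than its 1 at 3 h.

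**Figure D1:**
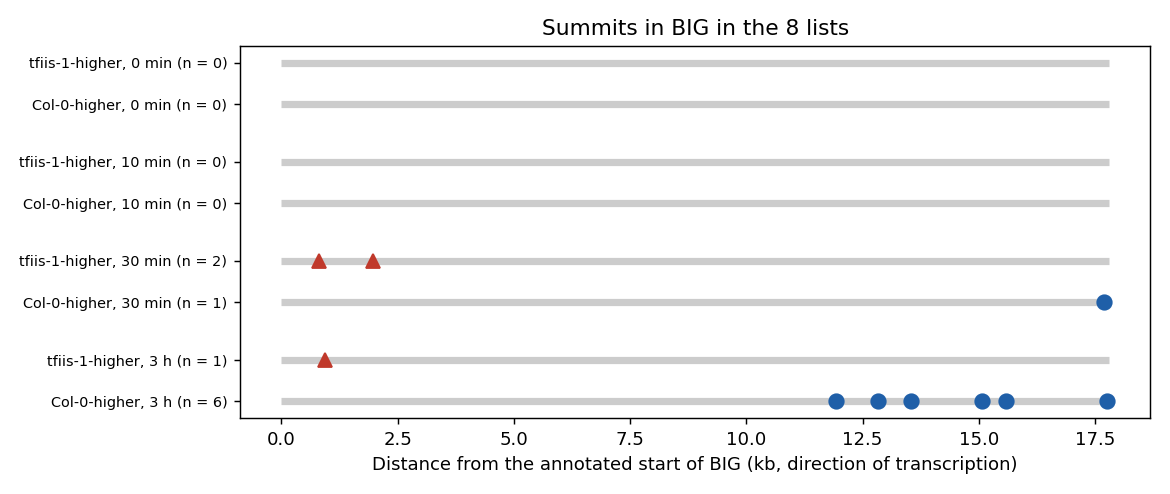
Summits in BIG in each of the 8 lists, as triangles (tfiis-1-higher) and circles (Col-0-higher) along the gene, in kb from the annotated start in the direction of transcription. The grey bar is the whole gene; the tfiis-1-higher summits lie within 1965 bp of the start, and the Col-0-higher summits lie at 11930 bp or beyond.

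The tfiis-1-higher summits lay close to the start of BIG at both times. At 30 min the first lay 816 bp downstream of the annotated start, at base 447864. The second lay 1149 bp further on, 1965 bp from the start at base 446715. The summit at 3 h lay between them, 931 bp from the start at base 447749, which is 115 bp from the nearer summit of 30 min. As shares of the gene, from 0 at the start to 1 at the end, these are positions 0.0458 and 0.11 at 30 min and 0.0523 at 3 h. Beyond 1965 bp the gene held no tfiis-1-higher summit at any time.

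The Col-0-higher summits lay at the other end. At 30 min the 1 summit lay 103 bp before the annotated end, at base 430980 and position 0.99. At 3 h the summit nearest the end lay 46 bp before it, at base 430923, which is 57 bp from the summit of 30 min. The other 5 summits of 3 h lay upstream of it. Going back from the end, they were 2207 bp (base 433084), 2738 bp (base 433615), 4253 bp (base 435130), 4979 bp (base 435856) and 5873 bp (base 436750) away. Their positions ran from 0.88 back to 0.67. The 6 summits spanned 5827 bp, 32.7% of the gene, where the 30 min list had marked its end alone. Spacings between neighbouring summits ranged from 531 bp to 2161 bp with a median of 894 bp, and the widest lay between the summit at the end and the next.

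The 30 min summit at the end of BIG had a score of 8.45 on the authors' scale, whose meaning is not stated. It ranked number 344 of the 896 summits in that list, which had a median score of 6.78 and a highest score of 37.6. The 3 h list and the tfiis-1-higher lists give no score, so the other 9 summits of BIG could not be ranked.

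Summits of one direction recurred near the same place at 30 min and 3 h, as they did in most genes. The nearest pair in BIG was 115 bp apart among tfiis-1-higher summits, against a median of 35 bp over the 3739 genes with such summits at both times. Among Col-0-higher summits it was 57 bp apart, against a median of 36 bp over 554 genes. BIG's pair was farther apart than that of 76.9% of genes in the first case and of 63.2% in the second. Summits of opposite direction never came close in BIG. The smallest distance between them was 15735 bp at 30 min and 10999 bp at 3 h.

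The order along BIG, tfiis-1-higher upstream and Col-0-higher downstream, was the order of nearly all genes with summits in both directions. At 30 min all tfiis-1-higher summits lay upstream of all Col-0-higher ones in 396 of 404 such genes (98.0%), and at 3 h in 1536 of 1578 (97.3%). What set BIG's values at the edge was the stretch between them. The 15735 bp without a summit at 30 min was the widest such stretch of the 396 genes, whose median was 1231 bp. At 3 h the 10999 bp ranked number 3 of 1536, after GSL10 (AT3G07160), a callose synthase gene, with 14112 bp and the microtubule gene MOR1 (AT2G35630) with 12683 bp; the median was 1291 bp. Both genes were singled out by these values. A stretch in bp cannot exceed the length of its gene, and the median nuclear protein-coding gene has 2078 bp. Relative to gene length the stretch was 88.4% of BIG at 30 min, exceeded in 3 genes, and 61.8% at 3 h, exceeded in 404 genes. BIG was thus near the top on both scales at 30 min, and on the scale of bp alone at 3 h.

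Whether BIG's summits look unusual also turned on the scale of distance. By share of the gene, its tfiis-1-higher summits were far upstream of the median of their lists, which was 0.51 at 30 min and 0.40 at 3 h. In bp from the start they were less so. The summits at 816 bp and 1965 bp compare with a list median of 1665 bp (quartiles 1033 and 2550 bp) at 30 min, and 15.8% and 59.7% of that list lay nearer to the start of its gene. The summit at 931 bp compares with a median of 1215 bp (quartiles 611 and 2036 bp) at 3 h, and 38.6% of the list lay nearer.

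For the Col-0-higher summits the scales gave the opposite picture. The summits at the very end, 103 bp and 46 bp before it, compare with list medians of 136 bp at 30 min and 117 bp at 3 h. The other 5 summits of 3 h were at 2207 to 5873 bp from the end, far past the upper quartile of 458 bp, and between 94.7% and 99.3% of the list lay nearer to the end of its gene. In that list 27 of 3213 pairs of summit and gene (0.840%) lay over 5000 bp from the end, and the summit of BIG at 5873 bp was 1 of them. By share of the gene the same 5 summits lay upstream of the list median of 0.95, with 18.7% to 30.9% of the list further upstream, so on that scale they were less extreme.

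**Figure D2:**
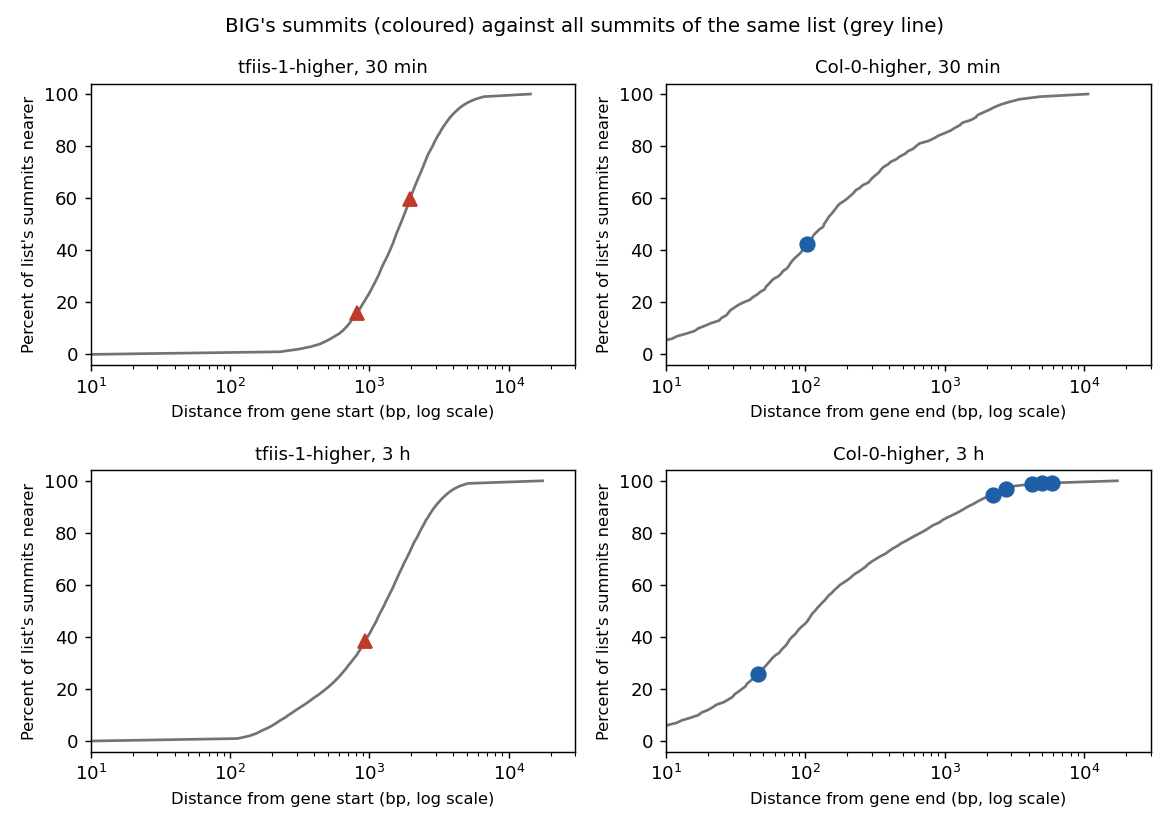
Distance of BIG's summits from the gene start (tfiis-1-higher, left) or from the gene end (Col-0-higher, right) on a log scale in bp, at 30 min (top) and 3 h (bottom); the y axis is the percent of the list's summits that lie nearer, and the grey line is the whole list. The tfiis-1-higher summits and the Col-0-higher summits at the gene end sit between 15.8% and 59.7%, and 5 Col-0-higher summits of 3 h sit at 94.7% or above.

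Since a long gene has more room for summits, BIG was set beside the 50 longest nuclear protein-coding genes, itself included. Of these 50, the tfiis-1-higher lists held 13 (0 min), 3 (10 min), 28 (30 min) and 36 (3 h), and the Col-0-higher lists held 0, 0, 13 and 20. BIG's absence from the tfiis-1-higher list of 10 min was shared with 46 of the other 49. The 3 of 50 in that list are a smaller share than the 10.9% of all genes, while at the other times the share of the 50 exceeded that of all genes. No test was made of these shares. BIG's 6 Col-0-higher summits at 3 h ranked second of the 50, where the median gene had 0 and THO2 had 7. Its 2 tfiis-1-higher summits at 30 min ranked number 14, and its 1 at 3 h ranked number 26, with 10 other genes at 1.

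Counted per length, BIG's Col-0-higher summits at 3 h came to 3.37 per 10 kb. That was below the median of 4.03 per 10 kb over all genes of the list, which are mostly short genes with 1 summit, and above the median of 1.42 per 10 kb over the 20 of the longest genes in the list, among which BIG again ranked second. Its tfiis-1-higher density was 1.12 per 10 kb at 30 min and 0.562 per 10 kb at 3 h, against medians of 1.26 and 1.33 per 10 kb over the longest genes in those lists. At 3 h BIG thus had more Col-0-higher summits than all of the 50 longest genes but THO2. Its tfiis-1-higher density was below the median of the longest genes in the list at both times. It ranked number 16 of 28 at 30 min and number 34 of 36 at 3 h. The longest genes outside those lists are left out of these medians.

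Both lists of 3 h held 19 of the 50 longest genes, and in all 19 the tfiis-1-higher summits lay upstream of the Col-0-higher ones. In 12 of the 19, BIG included, a Col-0-higher summit lay over 5000 bp from the gene end, and the 50 longest genes together held 16 of the 27 such pairs in the list. The span of Col-0-higher summits in BIG, 5827 bp, ranked number 7 of the 19; that of SYD (AT2G28290), a SNF2 chromatin remodeler, was 10539 bp with 3 summits, and that of THO2 was 5643 bp with 7. TOR (AT1G50030), the growth-regulating kinase gene of nearly the same length (17748 bp), ran the other way over time. It held 9 Col-0-higher summits at 30 min and 3 at 3 h, where BIG held 1 and 6. SYD and TOR were singled out after their values were seen, and the difference in time course was not tested.

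**Figure D3:**
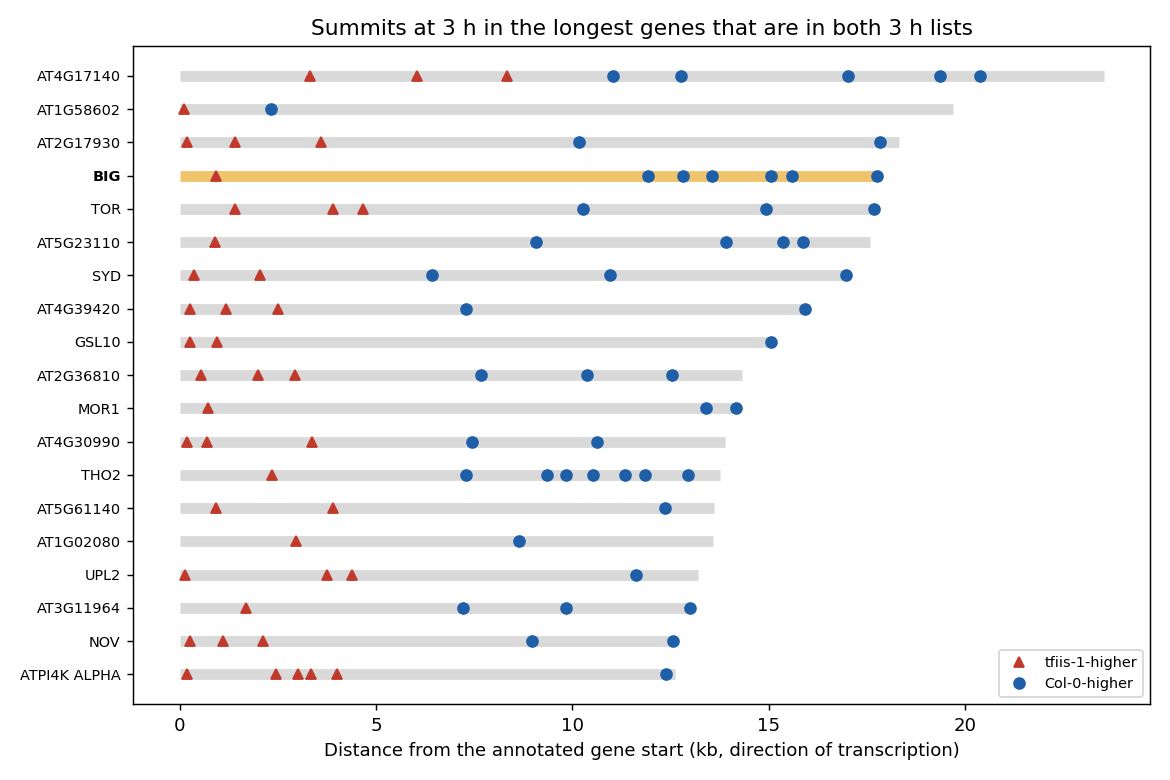
Summits at 3 h in the 19 of the 50 longest genes that were in both lists of that time, ordered by length, with triangles for tfiis-1-higher and circles for Col-0-higher, in kb from the annotated start. BIG is marked in yellow, with 1 tfiis-1-higher summit at 931 bp and 6 Col-0-higher summits from 11930 to 17757 bp.

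The 5 longest genes other than BIG did not share 1 pattern. ATM (AT3G48190), the DNA damage kinase gene and at 27265 bp the longest, was in none of the 8 lists. AT1G48090 was in the tfiis-1-higher lists only, with 2 summits at 0 min, 4 at 30 min and 3 at 3 h. AT1G67120, the midasin gene MDN1, held 1 tfiis-1-higher summit, at 3 h and 819 bp from its start. AT5G24740 (SHRUBBY) was likewise tfiis-1-higher only, with 1 summit at 30 min and 2 at 3 h. AT4G17140 was the nearest to BIG: absent at 0 min and 10 min, it held 2 tfiis-1-higher summits at 30 min, and 3 tfiis-1-higher and 5 Col-0-higher summits at 3 h. Its Col-0-higher summits lay 3172 to 12515 bp from its end, so unlike in BIG none was close to the end itself.

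BIG's pattern of presence, in both lists of 30 min and both of 3 h and in none of 0 min and 10 min, was shared by 91 other genes. Their median length was 4175 bp and none was longer than BIG; the longest was TOR. They held a median of 1 and at most 3 Col-0-higher summits at 3 h, against 6 in BIG. In 90 of the 91 all tfiis-1-higher summits lay upstream of all Col-0-higher ones at 3 h. Likeness was measured as the sum over the 8 lists of the differences in the number of summits, and 13 genes tied at the smallest sum, 5, which for the named genes is the difference at 3 h between 1 Col-0-higher summit and BIG's 6. By closest length the 5 named are ARL2 (AT1G59980), a relative of the gravitropism gene ARG1, AT5G42740, AT5G50780, AT1G63430 and AT1G32090. Each held 2 tfiis-1-higher summits and 1 Col-0-higher summit at 30 min, and 1 of each at 3 h. Except in ARL2, where they lay at 0.50 at both times, their Col-0-higher summits lay at 0.97 to 0.99 of the gene, as BIG's summit of 30 min did. TOR shares the presence pattern but stands at a sum of 14.

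The genes of the pathways in which BIG is known were listed from general knowledge: 19 genes of auxin transport and 13 of the N-degron pathway. Their median lengths were 3732 bp and 2490 bp, against 2078 bp over all nuclear protein-coding genes. The shares below are not matched for length. Of the auxin transport genes, the tfiis-1-higher lists held 1 (5.26%), 5 (26.3%), 7 (36.8%) and 4 (21.1%) from 0 min to 3 h, and the Col-0-higher lists held 0, 0, 0 and 4 (21.1%). The shares of all genes given above are 4.90%, 10.9%, 16.6% and 23.7%, and 10.8% for the last. The median of summits per gene was 0 in each list, in the auxin transport genes as in all genes. In 10 of the 19 genes no list held a summit, and 9 were in at least 1 list. Over all nuclear protein-coding genes, 9113 of 27444 were in at least 1 list.

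PIN3 (AT1G70940) and PIN7 (AT1G23080), which encode efflux carriers of tropic growth, were in the lists at 10 min, unlike BIG. PIN3 held 3 tfiis-1-higher summits at 10 min and 3 at 30 min, and PIN7 held 2 and 1. At 3 h neither had a tfiis-1-higher summit, and each held 3 Col-0-higher ones. In PIN3 these ran along the gene at 745, 2733 and 3504 bp from its start, the first of them 1 bp from a tfiis-1-higher summit of 30 min at 746 bp. In BIG, by contrast, no place held summits of both directions at different times.

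Of the 3 ABC transporter genes of auxin efflux in the list, ABCB1 and ABCB4 held summits in both directions at 3 h, as BIG did, and ABCB19 did not. They were the only 2 of the 19 auxin transport genes to do so, against 1578 of 27444 nuclear protein-coding genes. ABCB1 (AT2G36910) held 4 tfiis-1-higher summits at 30 min, and at 3 h it held 2 tfiis-1-higher summits and 1 Col-0-higher summit, 146 bp from its end. ABCB4 (AT2G47000) held 1 tfiis-1-higher summit at each of these times, at 0.24 and 0.23, and a Col-0-higher one 80 bp from its end at 3 h. ABCB19 (AT3G28860), named here after its values were seen and with 7574 bp the longest of the 19 genes, held 4 tfiis-1-higher summits at 10 min and 5 at 30 min, and was in no list of 3 h and in no Col-0-higher list. GNOM (AT1G13980), the ARF exchange factor that recycles PIN proteins, and RCN1 (AT1G25490), a scaffold subunit of phosphatase 2A, were in no Col-0-higher list. Of tfiis-1-higher summits GNOM held 1 at 30 min and 3 at 3 h, and RCN1 held 3 and 2.

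Of the 13 N-degron genes, the tfiis-1-higher lists held 1 (7.69%), 3 (23.1%), 4 (30.8%) and 7 (53.8%) from 0 min to 3 h, and the Col-0-higher lists held 0, 0, 0 and 3 (23.1%). Over all genes these lists held 4.90%, 10.9%, 16.6% and 23.7%, and 10.8% in the Col-0-higher list of 3 h. The median of summits per gene was 0, and 1 in the tfiis-1-higher list of 3 h, where it was 0 over all genes. PRT6 (AT5G02310), the ubiquitin ligase beside which BIG acts, is with 9075 bp the longest of the 13 and the only 1 in both lists of 3 h. Over all nuclear protein-coding genes, 1578 of 27444 were in both. PRT6 held 5 tfiis-1-higher summits at 30 min, from 456 to 8377 bp downstream of its start, and 3 at 3 h, from 164 to 3185 bp. Its Col-0-higher summit at 3 h lay 58 bp from its end, close to the distance of 46 bp in BIG. Unlike in BIG, the tfiis-1-higher summits of PRT6 at 30 min reached 0.92 of the gene, and no list of 30 min held a Col-0-higher summit in it.

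Among the substrates of the pathway, the hypoxia-response factor genes RAP2.12 (AT1G53910) and RAP2.2 (AT3G14230) were tfiis-1-higher already at 10 min, and RAP2.12 at all 4 times with 1, 1, 1 and 2 summits. VRN2 (AT4G16845), a Polycomb subunit, held 2 tfiis-1-higher summits at 30 min and 2 at 3 h. HRE1 (AT1G72360), another hypoxia-response factor gene, held 1 Col-0-higher summit at 3 h, 138 bp from its end. AT2G44420, a gene of the pathway's list that is not one of the substrates, held 1 tfiis-1-higher summit at 10 min, at 0.05.

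**Figure D4:**
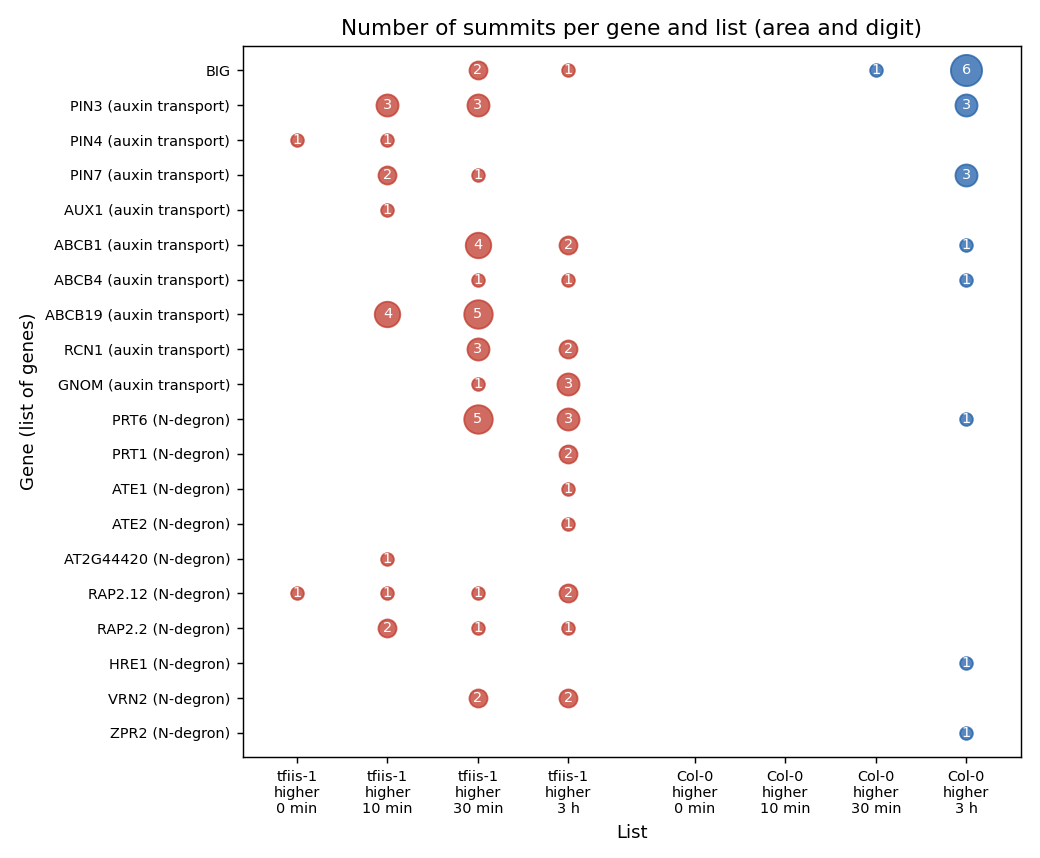
Number of summits per gene (digit, and area of the circle) in the tfiis-1-higher lists (left) and the Col-0-higher lists (right) at each time, for BIG and for the 19 auxin transport and N-degron genes that were in any list. BIG has the most Col-0-higher summits of the genes shown, 6 at 3 h, and PIN3 and PIN7 follow with 3 each.

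The genes around BIG held few summits, all of them tfiis-1-higher at 3 h. That list held 23.7% of all nuclear protein-coding genes. On the side of its start, AT3G02270 was in no list, and the next gene, AT3G02280 (TAH18), held 2 tfiis-1-higher summits at 3 h, the nearer of them 5347 bp before the start of BIG. On the side of its end, AT3G02250 held 1 tfiis-1-higher summit at 3 h, 4224 bp beyond the end, and AT3G02255, which overlaps it, held none. Outside BIG, the nearest Col-0-higher summit of 3 h lay 15600 bp before the start and 21615 bp beyond the end. At 30 min it lay 313139 bp and 218116 bp away on these sides. The 2 genes on each side of BIG thus held no Col-0-higher summit at any time. That is the common case, since the Col-0-higher lists held at most 10.8% of all nuclear protein-coding genes, at 3 h. All summits in the lists lie inside a named gene, so signal between genes cannot be read from them. Absence of a neighbour from a list does not show equal signal there.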

How the data were processed

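S2P ChIP-seq libraries of tfiis-1 and Col-0 were compared by the authors, and 8 lists of summits were deposited. Bowtie2, FastQC, MACS3, deepTools and TAIR10 are named, per the submitters' processing notes; their roles and versions, the threshold, scaling, pooling of replicates and use of inputs were not given in the sources used here, and each step can change which summits are listed. In 2 lists the authors deposited a score per summit, used here only to rank within a list.

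BIG's lines were matched by gene identifier, repeated lines were counted once (BIG had 0), and positions were computed from gene intervals in the RefSeq table of TAIR10.1. All 922 intervals in the lists equalled that table, and all 9114 identifiers matched it. Distances run from the annotated start or end. Shares of genes use 27444 nuclear protein-coding genes. Summits are close within 500 bp. No test was made, since no list holds values per library. The functions were tested on simulated data. BIG, the gene lists and the comparisons were chosen with earlier results of these data known. Named genes are BIG, 2 neighbours on each side, the 5 longest others, the 5 most alike, and up to 6 members per pathway in the most lists, ties going to the lower identifier; exceptions are marked. Sequences are not shown, as none was used here. Python 3.11.15, numpy 2.4.6, pandas 2.3.3 and matplotlib 3.10.9 were used.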

Additional observations from a re-analysis of the deposited data

How the results depend on the processing

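BIG's counts stayed as reported when every line was counted, when summits within 300 bp were merged, when lines were matched by position and, in the 2 lists with scores, when only scores at or above the list median were kept. None of these settings could change its counts, and the first 2 could not change its positions. BIG had 0 repeated lines, and its closest summits within a list were 531 bp apart. No summit of another gene lay inside BIG and no listed summit lay outside its named gene, so matching by position gave the same summits. The limit on scores met only BIG's summit of 30 min, whose score of 8.45 was above the list median of 6.78. Its median positions stayed as reported when every line was counted, when summits were merged and, at 30 min for Col-0-higher summits, under the same limit on scores. Where BIG held 1 or 2 summits, the mean equals the median by definition. Only the Col-0-higher position of 3 h could move with the mean. It went from 0.8037 to 0.8119, less than the spread of its 6 summits. The numbers of close pairs were the same with a limit of 250 or 1000 bp. These limits could not change them either, since the smallest distances between lists were 57 bp, 115 bp or at least 9965 bp. Its rank by Col-0-higher summits at 3 h was 1 among the 20 longest genes, which leave out THO2, and stayed at 2 among the 100 longest. With likeness taken from median positions, 0 of the 5 most similar genes stayed the same; genes tied by summit number are separated by length alone. With the 9113 listed protein-coding genes as denominator, tfiis-1-higher shares were 14.8%, 32.8%, 49.9% and 71.3% from 0 min to 3 h, and the Col-0-higher shares 0.340%, 0.757%, 9.51% and 32.4%. Counting genes with 2 or more summits, the tfiis-1-higher lists held 0, 3, 4 and 3 auxin transport genes and the Col-0-higher list of 3 h held 2; for N-degron genes the numbers were 0, 1, 2 and 4, and 0; over all genes the shares were 0.609%, 2.29%, 7.72% and 12.8%, and 0.725%. No paired analysis was possible because the lists carry no value per library; for the same reason no replicate could be left out. Depth is unknown, so a site missing from a list was not detected under the authors' threshold, which does not show equal signal.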
